A study of Homo sapiens with 6 samples.

Results

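A2780 cells carrying a short hairpin RNA against COL11A1 (A2780-shCOL11A1) were compared with A2780 cells carrying a scrambled hairpin (A2780 scrambled shRNA), so that both arms held an shRNA. The comparison used 2 of the 6 libraries of the series, 1 per arm, and 9035 of 23145 genes, those averaging 5 FPKM or more across the pair. FPKM is the number of fragments scaled by transcript length and by library size. A2780 is an established human ovarian cancer line. The other 4 libraries were A2780-COL11A1, in which the gene was overexpressed, A2780CIS, a cisplatin-selected derivative with high endogenous COL11A1, and the OVCAR3 line with COL11A1 or with GFP. The series asked which mRNAs accompany high and low COL11A1. With 1 library per arm there was no measure of culture-to-culture variation, so no test was made and no value below carries an error. The hairpin sequence, the number of hairpins and the number of clones were not given in the sources used here, so a response to the loss of COL11A1 and a response to this hairpin or culture cannot be told apart.

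COL11A1 encodes the alpha 1 chain of type XI collagen, a minor fibrillar collagen that copolymerizes with types II and V and limits fibril diameter. Outside cartilage the gene is normally little expressed, and in carcinomas it is best known from activated stromal fibroblasts. Some tumour cell lines transcribe it themselves.

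The knockdown was visible at its target. COL11A1 (chromosome 1, 103342022 to 103574052 in GRCh37) stood at 0.670 FPKM in A2780-shCOL11A1, 8.17 in A2780-COL11A1, 297 in A2780CIS and 4.23 in A2780 scrambled shRNA. In OVCAR3 it stood at 1.67 FPKM with COL11A1 and 0.0258 with GFP. A2780-shCOL11A1 was thus the lowest of the A2780 libraries, and its control was already far under A2780CIS. The FPKM ratio of A2780-shCOL11A1 to its control was 0.158, and the log2 ratio after adding 1 FPKM to each value was -1.65. From the estimated depth these levels corresponded to about 57 reads in A2780-shCOL11A1 and 406 in A2780 scrambled shRNA. In a culture measured in bulk, fewer expressing cells and less RNA per cell cannot be told apart. The mean of 2.45 FPKM left COL11A1 itself under the 5 FPKM minimum. Among the 11818 genes averaging 1 FPKM or more, 9 had a log2 ratio as low or lower, COL11A1 included, and 4 of the 9 were not small RNAs: BLOC1S5, H3F3A, SYS1-DBNDD2 and COL11A1. BLOC1S5 and SYS1-DBNDD2 overlap other genes in the table, so reads may be assigned to either and their values are less certain. Genes around COL11A1 did not share its low ratio. Of 19 neighbours within 4 megabases with at least 1 FPKM, 15 had a log2 ratio above 0, the median was 0.11, and the range ran between -0.35 (DNAJA1P5) and 0.45 (OLFM3). DNAJA1P5, a pseudogene, and OLFM3 overlap each other, so both ends of this range are less certain.

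Other collagen chains differed little. Of the 38 collagen genes listed, 7 reached 5 FPKM, 4 of them below 0 and 3 above, with a median log2 ratio of -0.07 and none at 1.5-fold. COL3A1, a major fibrillar collagen, stood at 123 FPKM in A2780-shCOL11A1, 75.7 in A2780-COL11A1, 548 in A2780CIS and 147 in A2780 scrambled shRNA, a log2 ratio of -0.25 for the shRNA pair. COL5A2, a type V chain and so a partner of type XI in mixed fibrils, stood at 336 FPKM in A2780-shCOL11A1 and 316 in A2780 scrambled shRNA (log2 ratio 0.09). The 3 type VI chains, which form beaded microfibrils, lay at -0.18 (COL6A2), -0.07 (COL6A1) and 0.08 (COL6A3). COL4A5, a basement membrane chain, was at 0.05, and COL18A1, the source of endostatin, at -0.13. The remaining chains that can assemble with COL11A1 were scarce. COL11A2 stood at 1.42 FPKM in A2780-shCOL11A1 and 1.07 in A2780 scrambled shRNA. COL5A1 stood at 1.09 FPKM in A2780-shCOL11A1 and 1.44 in A2780 scrambled shRNA. COL2A1 stood at 0.542 FPKM in A2780-shCOL11A1 and 0.280 in A2780 scrambled shRNA. All of these are under 2 FPKM in both libraries, below the 5 FPKM minimum, so no ratio is given for them.

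**Figure D1:**
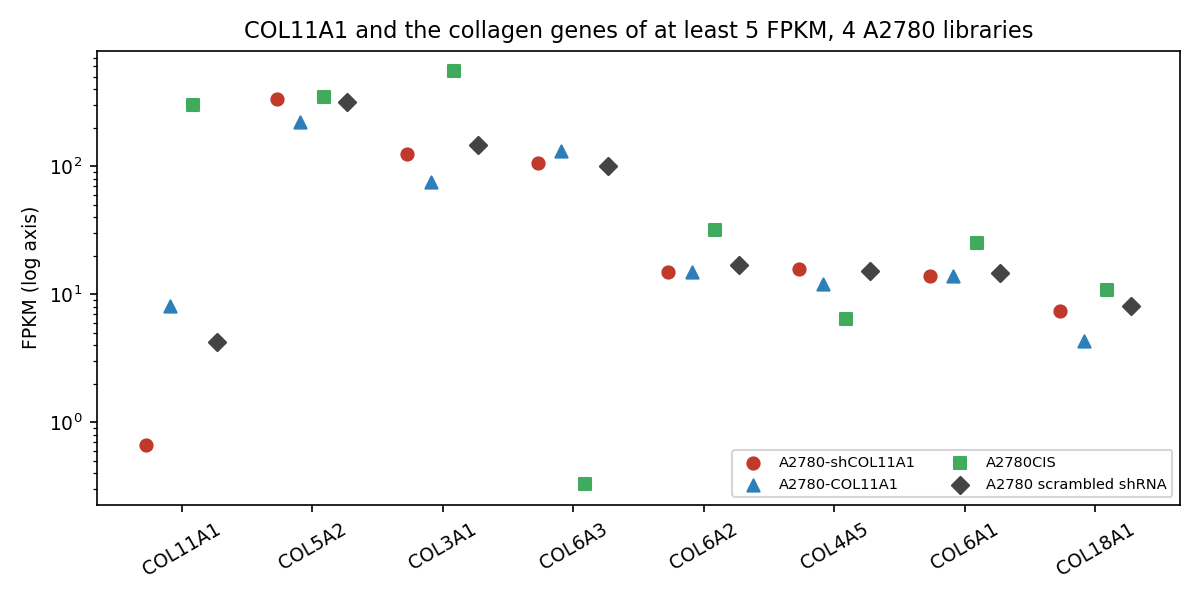
FPKM (log axis) of COL11A1 and of the 7 collagen genes with at least 5 FPKM in the 4 A2780 libraries, 1 point per library. COL11A1 is 0.670 in A2780-shCOL11A1 and 4.23 in A2780 scrambled shRNA, while the points of these libraries lie close together for the other 7 genes.

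Across the transcriptome the pair was close. The central 90% of log2 ratios lay between -0.36 and 0.30, the median was -0.01, and 81.9% of genes were within 1.2-fold. At a threshold of 1.5-fold, 31 genes were higher in A2780-shCOL11A1 (0.343% of those compared) and 87 lower (0.963%), or 1.31% in either direction. At 2-fold, 9 were higher (0.0996%) and 14 lower (0.155%). After rescaling to TPM the 1.5-fold split was 61 higher and 67 lower, with a median log2 ratio of 0.06 over all genes. Small RNAs, which poly-A selection captures poorly, made up 6 of the 9 and 5 of the 14. Against these counts, 51.1% of all genes lay below 0. The share past 1.5-fold was 13.4% to 39.2% in the other pairs of A2780 libraries. Pure counting error of the log2 ratio was estimated as 0.11 (SD) for genes of 5 to 10 FPKM and 0.03 above 100 FPKM. It covers the counting of reads only. The reads were estimated with each gene's longest annotated transcript, so this error is understated where a shorter transcript is expressed. Just above the 5 FPKM minimum (up to 5.5 FPKM), 1.44% of 278 genes were past 1.5-fold, and just below it (down to 4.5 FPKM), 2.46% of 244.

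The cells matched the label in part. Endothelial markers were all under 1 FPKM in both libraries (0 of 5 reached it), with CDH5 at the lowest value of the table, and 1 of 6 immune markers reached 1 FPKM. Of 6 epithelial markers, 1 (KRT18) reached 1 FPKM. Of 6 ovarian cancer markers, 1 (FOLR1) did, and the lineage factor WT1 was at the lowest value in both libraries. PAX8 stood at 0.001 FPKM in A2780-shCOL11A1 and 0.0398 in A2780 scrambled shRNA. Of 7 fibroblast markers used for this check, 5 reached 1 FPKM, and the 7 summed to 131 FPKM in A2780-shCOL11A1 and 154 in A2780 scrambled shRNA, most of it COL3A1. A second fibroblast list, with 5 members of at least 5 FPKM, summed to 528 FPKM in A2780-shCOL11A1 and 465 in A2780 scrambled shRNA, so the direction depended on the genes chosen. Its most abundant member POSTN, a matrix protein, stood at 278 FPKM in A2780-shCOL11A1 and 195 in A2780 scrambled shRNA (log2 ratio 0.51).

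**Figure D2:**
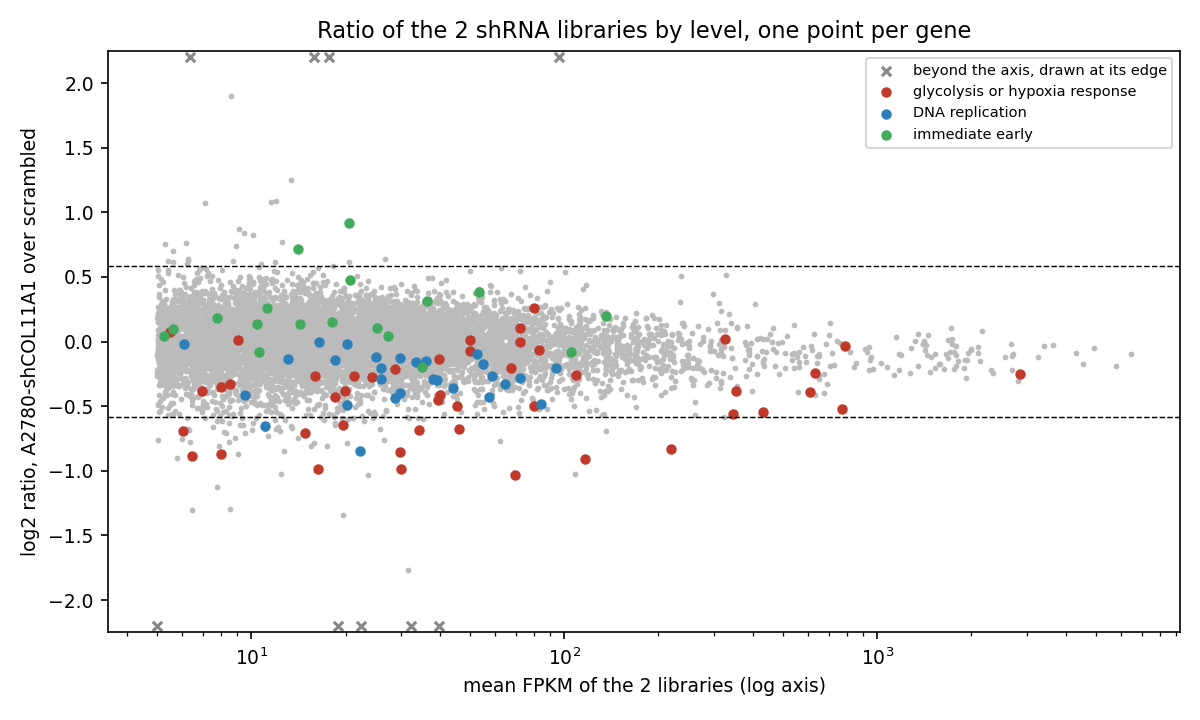
Log2 ratio of A2780-shCOL11A1 over A2780 scrambled shRNA (vertical) against the mean FPKM of both libraries (horizontal, log axis), 1 point per gene for 9035 genes, with dashed lines at 1.5-fold. Most red points (glycolysis or hypoxia response) and all blue points (DNA replication) lie below 0, and the small RNAs beyond the axis are drawn at its edges.

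Genes of glycolysis and of the hypoxia response were lower in A2780-shCOL11A1. In hypoxia the factor HIF1A is stabilized as a protein, pairs with ARNT and binds promoters and enhancers that hold the core ACGTG, and it drives glucose uptake, glycolytic enzymes and mitophagy genes. Of 24 glycolysis genes with at least 5 FPKM, 21 were below 0, the median log2 ratio was -0.41, 5 were at least 1.5-fold lower and 0 higher. Of 22 hypoxia response genes, 19 were below 0, the median was -0.34, 8 were at least 1.5-fold lower and 0 higher. The lists together hold 46 genes, of which 13, or 28.3%, were at least 1.5-fold lower, beside 0.963% of all genes. These lists, like the others used here, were chosen with earlier results of these data known. The contrast with all genes is therefore a description and not independent support.

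PGK1, an ATP-generating enzyme of glycolysis, stood at 157 FPKM in A2780-shCOL11A1, 239 in A2780-COL11A1, 101 in A2780CIS and 281 in A2780 scrambled shRNA, a log2 ratio of -0.83. BNIP3, a mitophagy receptor, stood at 80.5 FPKM in A2780-shCOL11A1, 61.2 in A2780-COL11A1, 64.7 in A2780CIS and 152 in A2780 scrambled shRNA (-0.91). FAM162A, a mitochondrial protein induced by hypoxia, stood at 45.4 FPKM in A2780-shCOL11A1, 57.4 in A2780-COL11A1, 49.0 in A2780CIS and 94.0 in A2780 scrambled shRNA (-1.03). For all of these the scrambled library was the highest of the 4, and A2780-shCOL11A1 was the lowest only for FAM162A. PFKFB4, which sets the level of a phosphofructokinase activator, stood at 10.6 FPKM in A2780-shCOL11A1, 5.24 in A2780-COL11A1, 2.06 in A2780CIS and 22.0 in A2780 scrambled shRNA (-0.99). PFKP, a phosphofructokinase, stood at 21.1 FPKM in A2780-shCOL11A1, 12.8 in A2780-COL11A1, 55.6 in A2780CIS and 38.9 in A2780 scrambled shRNA (-0.85). CXCR4, a chemokine receptor, stood at 19.9 FPKM in A2780-shCOL11A1, 2.08 in A2780-COL11A1, 0.001 in A2780CIS and 40.3 in A2780 scrambled shRNA (-0.98). CXCR4 was thus expressed mainly in the libraries that carry an shRNA. The other members past 1.5-fold were PLOD2 (-0.88), ANGPTL4 (-0.87), ALDOC (-0.70), CA9 (-0.69), PFKL (-0.68), BNIP3L (-0.68) and P4HA2 (-0.65), which include a collagen lysyl hydroxylase, a lipoprotein lipase inhibitor, a carbonic anhydrase and a collagen prolyl hydroxylase subunit.

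Other abundant enzymes of the pathway had log2 ratios closer to 0 than PGK1. LDHA, which makes lactate, stood at 280 FPKM in A2780-shCOL11A1 and 413 in A2780 scrambled shRNA (log2 ratio -0.56). ENO1 stood at 637 FPKM in A2780-shCOL11A1 and 912 in A2780 scrambled shRNA (-0.52). GAPDH stood at 2610 FPKM in A2780-shCOL11A1 and 3109 in A2780 scrambled shRNA (-0.25), while the cytoskeletal gene ACTB stood at 1739 FPKM in A2780-shCOL11A1 and 1718 in A2780 scrambled shRNA (0.02). Several well known hypoxia targets did not share the pattern. VEGFA, an angiogenic growth factor, was at -0.06, DDIT4, an inhibitor of mTOR signalling, at 0.02, and STC2 at 0.10. HIF1A mRNA stood at 71.8 FPKM in A2780-shCOL11A1 and 72.1 in A2780 scrambled shRNA (-0.01), ARNT was at -0.09, and VHL, whose product marks HIF1A for degradation, at 0.09. The mean log2 level of the glycolysis list was 6.35 in A2780-shCOL11A1, 6.29 in A2780-COL11A1, 5.78 in A2780CIS and 6.75 in A2780 scrambled shRNA. That of the hypoxia list was 4.67 in A2780-shCOL11A1, 4.20 in A2780-COL11A1, 4.13 in A2780CIS and 5.09 in A2780 scrambled shRNA. The scrambled library had the highest level of the 4 for each list, and whether it or A2780-shCOL11A1 was the unusual culture cannot be told apart. Against the mean of the 3 other A2780 libraries in place of the scrambled one, the hypoxia median was 0.10 and the glycolysis median was -0.03. The median of all genes was 0.06 there, beside -0.01 for the shRNA pair. The hypoxia median thus changed sign but lay near that of all genes. Both results depended on the choice of control. Culture density and oxygen were not given in the sources used here.

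**Figure D3:**
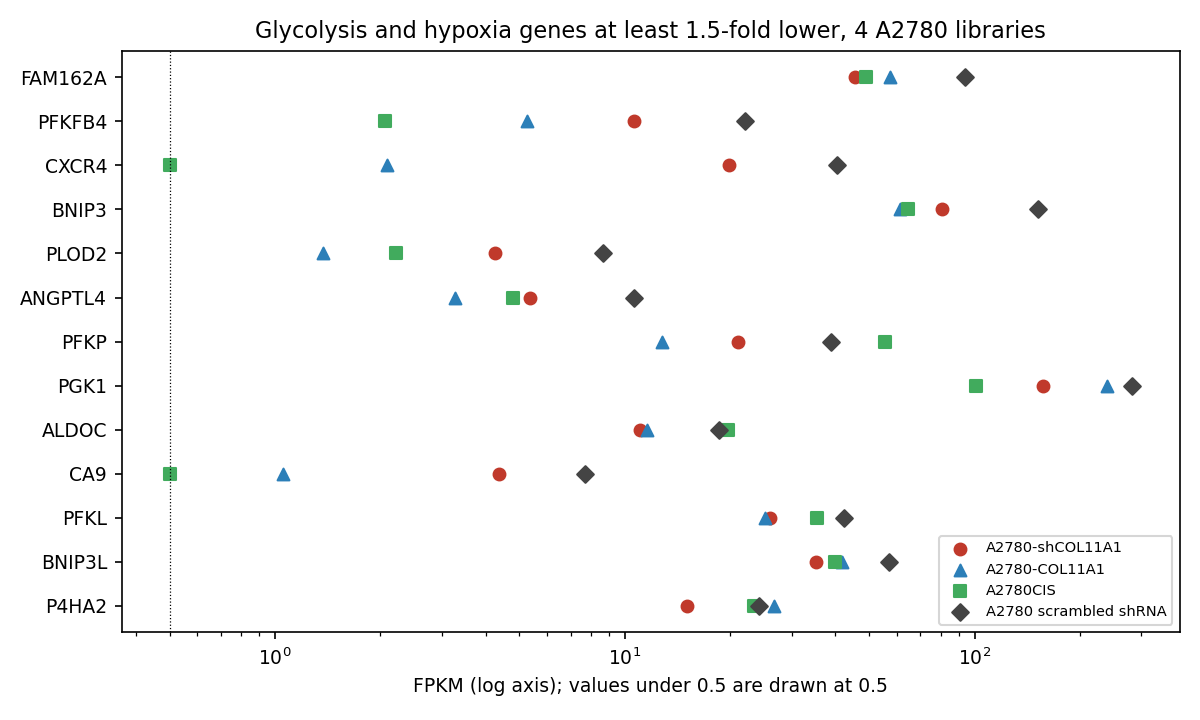
FPKM (log axis) of the 13 glycolysis and hypoxia genes that were at least 1.5-fold lower in A2780-shCOL11A1, 1 point per A2780 library. A2780 scrambled shRNA lies to the right of A2780-shCOL11A1 for every gene, and the place of A2780-COL11A1 and A2780CIS varies between genes.

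The promoters of 4 of these genes are shown because they hold the hypoxia core. Each is 300 bases, 250 before and 50 after the annotated start, from RefSeq on GRCh38.p14, written 5′ to 3′ on the gene's strand, with ACGTG or its reverse complement in capitals.
PGK1 (chrX:78103998-78104297, plus strand): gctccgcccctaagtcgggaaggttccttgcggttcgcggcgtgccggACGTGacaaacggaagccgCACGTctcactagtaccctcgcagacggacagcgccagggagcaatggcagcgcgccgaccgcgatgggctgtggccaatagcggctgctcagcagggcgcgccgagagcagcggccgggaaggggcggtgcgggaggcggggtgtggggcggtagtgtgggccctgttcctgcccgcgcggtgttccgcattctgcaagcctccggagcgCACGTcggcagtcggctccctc
BNIP3 (chr10:131981874-131982173, minus strand): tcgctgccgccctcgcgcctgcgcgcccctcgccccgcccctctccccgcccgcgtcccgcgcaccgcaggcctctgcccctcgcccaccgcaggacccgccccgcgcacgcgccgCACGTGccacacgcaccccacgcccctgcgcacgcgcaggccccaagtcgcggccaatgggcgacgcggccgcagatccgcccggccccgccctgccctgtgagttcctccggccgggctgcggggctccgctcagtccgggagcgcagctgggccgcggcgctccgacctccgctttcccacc
FAM162A (chr3:122383932-122384231, plus strand): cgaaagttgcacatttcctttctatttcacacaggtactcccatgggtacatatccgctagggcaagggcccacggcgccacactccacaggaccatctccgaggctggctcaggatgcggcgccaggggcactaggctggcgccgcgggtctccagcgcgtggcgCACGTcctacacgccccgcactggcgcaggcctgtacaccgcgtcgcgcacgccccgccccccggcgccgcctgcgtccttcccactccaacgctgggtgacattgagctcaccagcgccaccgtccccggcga
PLOD2 (chr3:146161135-146161434, minus strand): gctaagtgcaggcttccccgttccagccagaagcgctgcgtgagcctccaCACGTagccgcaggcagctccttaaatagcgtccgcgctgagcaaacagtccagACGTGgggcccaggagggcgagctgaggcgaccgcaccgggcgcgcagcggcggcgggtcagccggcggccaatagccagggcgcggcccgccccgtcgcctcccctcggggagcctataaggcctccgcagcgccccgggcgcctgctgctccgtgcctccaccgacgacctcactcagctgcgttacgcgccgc
The search covered both strands, and ACGTG lies within the E-box CACGTG, which holds it on each strand. PGK1 had 3 matches, BNIP3 and PLOD2 had 2 each, the pair in BNIP3 being 1 E-box, and FAM162A and ANGPTL4 had 1 each. PFKFB4, PFKP, CXCR4 and IDH2 had 0 in the window. The core stood in 57.9% of the 19 hypoxia promoters and 38.1% of the 21 glycolysis promoters in the table. It stood in 28.3% of the 7379 promoters of genes with at least 5 FPKM and 21.6% of all 27305 promoters. A match is a description of letters, not a site or a cause.

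DNA replication genes lay below 0 without exception, by smaller amounts. Of 28 with at least 5 FPKM, 28 were below 0, the median log2 ratio was -0.27, 2 were at least 1.5-fold lower, beside 0.963% of all genes, and 0 were higher. Against the mean of the 3 other A2780 libraries the median was -0.12. RRM2, the small subunit of the reductase that makes deoxynucleotides, stood at 15.6 FPKM in A2780-shCOL11A1, 39.3 in A2780-COL11A1, 26.5 in A2780CIS and 28.8 in A2780 scrambled shRNA (log2 ratio -0.85). E2F1, a transcription factor of the G1/S transition, stood at 8.38 FPKM in A2780-shCOL11A1, 17.1 in A2780-COL11A1, 10.3 in A2780CIS and 13.8 in A2780 scrambled shRNA (-0.66). A2780-shCOL11A1 was the lowest of the 4 for both genes. PCNA, the sliding clamp of the polymerases, was at -0.49, TK1, a thymidine kinase, at -0.49, and the helicase subunit MCM2 at -0.33. PCNA overlaps an antisense gene, as ENO1 and HIF1A do, and whether counting used strand was not given in the sources used here. The polymerase subunits POLA1 (-0.02) and POLE (-0.01) stood at nearly equal levels. Mitosis genes did not follow to the same extent: of 30, 20 were below 0, with a median of -0.07 and 0 past 1.5-fold. The mean log2 level of the replication list was 4.83 in A2780-shCOL11A1, 5.22 in A2780-COL11A1, 4.71 in A2780CIS and 5.11 in A2780 scrambled shRNA.

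Of the 2 replication genes past 1.5-fold, E2F1 has a match to a form of the E2F site in its promoter, TTTGGCGC, shown in capitals, and RRM2 has none in the window.
E2F1 (chr20:33686336-33686635, minus strand): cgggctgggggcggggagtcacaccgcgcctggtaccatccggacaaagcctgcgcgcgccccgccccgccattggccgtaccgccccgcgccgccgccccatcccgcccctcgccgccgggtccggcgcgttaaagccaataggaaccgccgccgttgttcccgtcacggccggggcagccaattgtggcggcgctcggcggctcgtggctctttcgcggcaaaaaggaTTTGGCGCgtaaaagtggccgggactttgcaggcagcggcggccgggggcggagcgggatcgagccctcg
TTTGGCGC stood in 24% of the 25 replication promoters and 0.659% of all promoters, and TTTCCCGC in 28% and 1.66%, both strands searched. These forms were added to the search after the values had been seen.

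Genes for collagen modification were mixed. Of 22 folding and crosslinking genes, 16 were below 0, beside 51.1% of all genes, and the median log2 ratio was -0.18. PLOD2 and P4HA2, 2 of the 22, were at least 1.5-fold lower, beside 0.963% of all genes. Both are also on the hypoxia list. SEC24D, a coat protein of the vesicles that export procollagen, stood at 6.17 FPKM in A2780-shCOL11A1, 21.8 in A2780-COL11A1, 15.0 in A2780CIS and 9.68 in A2780 scrambled shRNA (-0.58). PLOD1, a lysyl hydroxylase, stood at 106 FPKM in A2780-shCOL11A1 and 158 in A2780 scrambled shRNA (-0.57). SERPINH1, the collagen chaperone, stood at 379 FPKM in A2780-shCOL11A1 and 385 in A2780 scrambled shRNA (-0.02). Oxidative phosphorylation subunits had a median of -0.18, with 56 of 61 below 0, and cytosolic ribosomal proteins -0.12, with 71 of 78 below 0. In each of these lists 0 genes passed 1.5-fold. The ribosomal median was 0 after quantile normalization, and all genes above 100 FPKM had a median of -0.08.

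Immediate early genes and outputs of ERK signalling stood higher in A2780-shCOL11A1 than in A2780 scrambled shRNA. Of 18 immediate early and AP-1 genes, 15 were above 0, the median log2 ratio was 0.15, and 2 were at least 1.5-fold higher, beside 0.343% of all genes. That median was not particular to these genes. Hippo-YAP response, TGF-beta and BMP response, and matrix glycoproteins each had a median of 0.15 as well. EGR1, a zinc finger factor induced within minutes of stimulation, stood at 27.1 FPKM in A2780-shCOL11A1, 32.4 in A2780-COL11A1, 112 in A2780CIS and 13.9 in A2780 scrambled shRNA (log2 ratio 0.92). KLF10, a factor induced by TGF-beta, stood at 17.8 FPKM in A2780-shCOL11A1, 21.2 in A2780-COL11A1, 45.2 in A2780CIS and 10.4 in A2780 scrambled shRNA (0.72). For both genes the scrambled library was the lowest of the 4, and against the mean of the 3 other A2780 libraries the direction was the opposite (-0.44 for EGR1 and -0.28 for KLF10). BTG2 was at 0.48 and IER2 at 0.38. Of 11 ERK feedback and ETS genes, 11 were above 0, with a median of 0.19, and EGR1, which is on both lists, was the only one past 1.5-fold. The feedback inhibitors SPRY4 (0.26) and SPRY2 (0.24), the phosphatase DUSP6 (0.19) and the cyclin CCND1 (0.23) stood at 1.21 times the FPKM of A2780 scrambled shRNA or less. Against the mean of the 3 other A2780 libraries both list medians had the opposite direction, -0.12 for immediate early genes and -0.05 for ERK outputs.

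**Figure D4:**
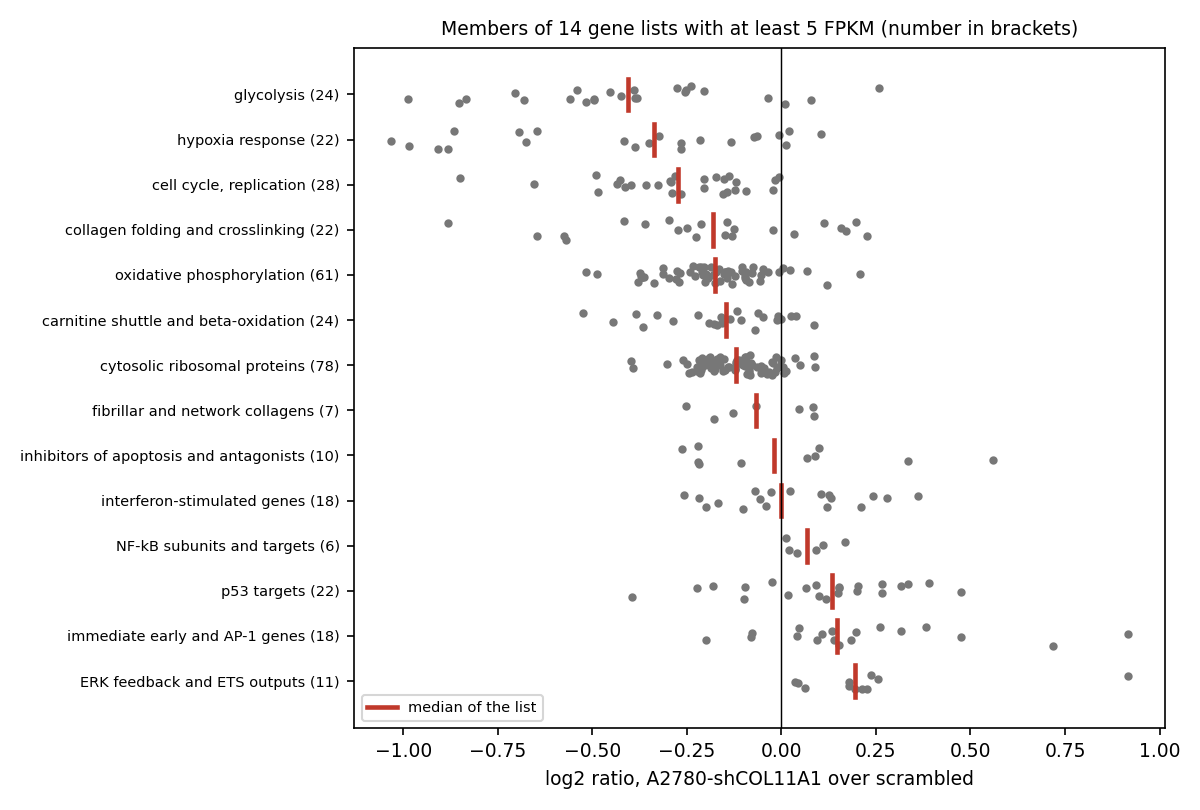
Log2 ratio of A2780-shCOL11A1 over A2780 scrambled shRNA (horizontal) for the members of 14 gene lists, 1 grey point per gene and a red bar at each list's median. The medians run between -0.41 for glycolysis at the top and 0.19 for ERK feedback and ETS outputs at the bottom.

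Of 45 lists, 40 had at least 5 members of 5 FPKM or more. No list had a median of 0.2 or above, and 4 had one of -0.2 or below: glycolysis, hypoxia response, replication and the second fibroblast list (-0.24), whose 5 members lay on both sides of 0, 3 below and 2 above (POSTN and THY1, 0.44). After rescaling to TPM, 6 medians were at 0.2 or above, the highest 0.26 for ERK feedback and ETS outputs, and 3 at -0.2 or below, the fibroblast list being at -0.17. The median of all genes was then 0.06, beside -0.01 without rescaling. Without rescaling, the other 36 list medians lay between -0.18 and 0.19. Inhibitors of apoptosis had a median of -0.02. BIRC2, which ubiquitinates components of TNF signalling, stood at 12.8 FPKM in A2780-shCOL11A1 and 15.0 in A2780 scrambled shRNA (-0.22). XIAP, a caspase inhibitor, stood at 8.13 FPKM in A2780-shCOL11A1 and 7.72 in A2780 scrambled shRNA (0.07). Carnitine shuttle and beta-oxidation genes had a median of -0.15, with 21 of 24 below 0, and CPT1A, which loads fatty acids for mitochondrial import, stood at 6.43 FPKM in A2780-shCOL11A1 and 7.36 in A2780 scrambled shRNA (-0.17). Interferon-stimulated genes, which can respond to double-stranded RNA, had a median of -0.002, with 9 of 18 below 0. The p53 targets had a median of 0.13.

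Among single genes outside the lists, several were lowest in A2780-shCOL11A1. Over the 20 lowest named ratios, list members included, A2780-shCOL11A1 was the lowest of the 4 A2780 libraries for 8 genes. A2780 scrambled shRNA was the highest for 11. These genes were chosen by a low ratio to the scrambled library, which by itself makes both ranks more frequent. REEP4, which keeps the endoplasmic reticulum off mitotic chromosomes, stood at 10.6 FPKM in A2780-shCOL11A1, 25.5 in A2780-COL11A1, 31.0 in A2780CIS and 28.5 in A2780 scrambled shRNA (-1.34). RAB11FIP1, an adaptor of recycling endosomes, stood at 4.52 FPKM in A2780-shCOL11A1, 11.3 in A2780-COL11A1, 10.4 in A2780CIS and 11.1 in A2780 scrambled shRNA (-1.13). The antisense transcript KDM5B-AS1 stood at 4.52 FPKM in A2780-shCOL11A1, 13.1 in A2780-COL11A1, 7.45 in A2780CIS and 12.6 in A2780 scrambled shRNA (-1.30). For REEP4 and RAB11FIP1 the other 3 A2780 libraries lay close together and A2780-shCOL11A1 stood apart. PDXK, a vitamin B6 kinase (-0.90), WDYHV1, an N-terminal glutamine amidase (-0.87), and CTF1, a cytokine (-0.85), were also lowest in A2780-shCOL11A1. H3F3A, a replacement histone gene that is on the histone list, stood at 13.9 FPKM in A2780-shCOL11A1, 157 in A2780-COL11A1, 9.01 in A2780CIS and 49.5 in A2780 scrambled shRNA (-1.76). A2780CIS was thus the lowest for H3F3A. It has near-identical copies among which reads can be split, so its value is uncertain. IDH2, a mitochondrial isocitrate dehydrogenase, stood at 71.0 FPKM in A2780-shCOL11A1, 63.4 in A2780-COL11A1, 26.1 in A2780CIS and 146 in A2780 scrambled shRNA (-1.03). The scrambled library was thus the highest and A2780CIS the lowest for IDH2. The remaining genes among the 20 lowest were P2RX3, an ATP-gated channel (-1.31), WDR54 (-1.04) and OTOL1, a collagen-like protein of the inner ear (-1.03).

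Of the 20 highest ratios, 14 belonged to genes whose level was highest in A2780-shCOL11A1 among the 4 A2780 libraries. These genes were chosen by a high ratio over the scrambled library, which by itself makes that rank more frequent. The count alone therefore does not set this culture apart. GREB1L, a cofactor needed for kidney development, stood at 32.9 FPKM in A2780-shCOL11A1, 13.4 in A2780-COL11A1, 7.25 in A2780CIS and 20.8 in A2780 scrambled shRNA (log2 ratio 0.64). PRTG, a cell surface protein of the immunoglobulin superfamily, stood at 11.4 FPKM in A2780-shCOL11A1, 3.26 in A2780-COL11A1, 1.66 in A2780CIS and 6.45 in A2780 scrambled shRNA (0.74). The histone H3 lysine methyltransferase MLL stood at 14.6 FPKM in A2780-shCOL11A1, 6.67 in A2780-COL11A1, 5.59 in A2780CIS and 9.15 in A2780 scrambled shRNA (0.62). A2780-shCOL11A1 was highest and A2780 scrambled shRNA second for these 3 genes. The related MLL2 was at 0.64. GNG8, a G protein gamma subunit, was at 1.25, but from about 48 reads in A2780-shCOL11A1 and 21 in A2780 scrambled shRNA. RNF5, a ubiquitin ligase of the endoplasmic reticulum, was at 1.07, TMEM183A at 0.83 and DHRS2, a short-chain dehydrogenase, at 0.77. OSTN, a secreted peptide (0.87), ANKRD30B (0.84), FGG, the fibrinogen gamma chain (0.77), HIST1H2BO, a histone H2B (0.70), IL1RAPL2 (0.63), MDK, a heparin-binding growth factor (0.62), and SP140L (0.62) completed the well separated loci. HYPK (1.90), HTR2B, a serotonin receptor (0.93), and the readthrough BLOC1S5-TXNDC5 (0.76) overlap other genes in the table, so reads may be assigned to either and these values are less certain.

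The ratio moved with transcript length. The median log2 ratio was -0.10 for genes whose longest annotated transcript is at most 1000 bases and 0.13 for those over 8000 bases, over 7 length classes. Across 8884 genes with an annotated length, Spearman's rho of the ratio was 0.28 with length and -0.28 with GC content, as a description across genes of 1 pair. For A2780-COL11A1 over A2780 scrambled shRNA the corresponding medians were 0.03 and -0.02, and for A2780CIS over A2780 scrambled shRNA -0.17 and -0.10. By GC content, the medians of genes at up to 40% and over 60% GC were 0.08 and -0.08 for A2780-shCOL11A1, 0.02 and -0.26 for A2780-COL11A1, and 0.12 and -0.27 for A2780CIS, each over A2780 scrambled shRNA. The difference between these GC classes was thus smallest in the shRNA pair. These comparisons share the scrambled library. With a length and GC trend removed from the ratio, the median was -0.39 for glycolysis, -0.35 for hypoxia response and -0.22 for replication, and -0.11 for oxidative phosphorylation and -0.05 for ribosomal proteins. The medians of glycolysis, hypoxia response and replication thus stayed at -0.2 or below. Some long genes named above were no longer past 1.5-fold (0.585 on the log2 scale) with the trend removed: MLL (longest transcript 16628 bases) was then at 0.45, PRTG (11967 bases) at 0.56 and GREB1L (8749 bases) at 0.54.

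**Figure D5:**
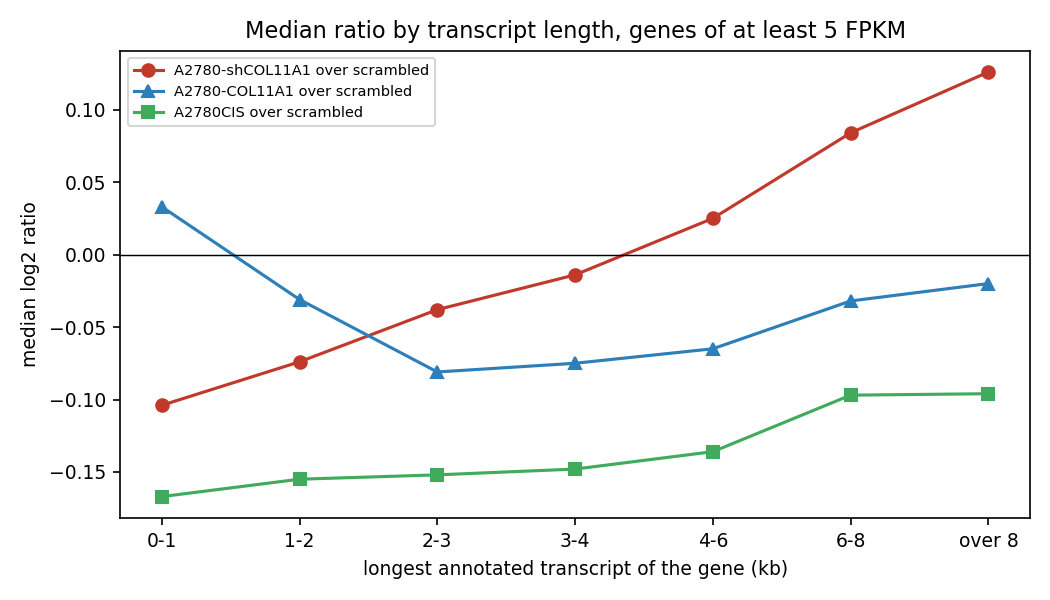
Median log2 ratio (vertical) in 7 classes of transcript length in kb (horizontal) for genes with at least 5 FPKM in the shRNA pair. For A2780-shCOL11A1 over A2780 scrambled shRNA it climbs with length between -0.10 and 0.13, and the lines of A2780-COL11A1 and A2780CIS over the same library are flatter.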

How the data were processed

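RNA was sequenced from 6 cultures, 1 library each; per the labels' protocols, poly-A RNA and a stranded kit gave single-end reads of 75 bases, with a stated average of 20 M (M, mega) per library. The authors deposited 1 table whose headers give FPKM. Because 1.09% of its cells hold a word, the deposited unit was recorded as other, and the numbers were treated as FPKM. Per the submitters' processing notes, STAR 2.5.0, RSEM 1.2.25 and the build GRCh38 were used, with no role given; the table's loci match GRCh37, so which program made the values is not given in the sources used here. Of 25275 entries, those off the main chromosomes, marked by a word, renamed to dates or with several loci were left out, which left 23145 genes.

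Depth was estimated from the steps between low FPKM values: 11.52 M reads in A2780-shCOL11A1 and 13.11 M in A2780 scrambled shRNA. This scale was the median of 16 of 29 single-transcript genes, those near the most frequent value. They ranged between 10.59 and 14.47 M, a range that this selection limits, so it does not measure the error of the depth. Numbers of reads per gene are estimates from this scale and from each gene's longest annotated transcript, protein-coding where there was one. They are too high where a shorter transcript is expressed.

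Ratios were log2((FPKM + 1)/(FPKM + 1)) for genes averaging 5 FPKM or more, which understates the difference of low genes. Calls were folds of 1.5 and 2, with no test. Named genes were the 20 highest and 20 lowest ratios, without unnamed loci, pseudogenes, small RNAs and names with several loci, plus up to 4 members per described list, COL11A1 and the collagens; further list members were named after their values were seen. The members and lists were chosen with earlier results of these data known. Lengths and GC came from GENCODE release 29. Python 3.11.15 code (numpy 2.4.6, pandas 2.3.3) was tested on simulated data with known changes. There, removal of the length and GC trend, an alternative added after seeing the data, narrowly failed its first criterion, a rank correlation with length near 0 afterwards. The method was kept, and the criterion was replaced after that failure by one on the medians of length classes, which it met. It under-corrects highly expressed genes, so values with the trend removed are approximate.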

Additional observations from a re-analysis of the deposited data

How the results depend on the processing

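Centring on the median ratio and quantile normalization left the COL11A1 ratio within 0.1 (log2) and the counts of genes past 1.5-fold within 1.5 times, but quantile normalization took the ribosomal median to 0. The COL11A1 ratio was -1.65, and -2.49 with a pseudocount of 0.1 FPKM, -1.97 after rescaling to TPM and -3.86 against the mean of the 3 other A2780 libraries. The count of higher genes (31) was 61 after rescaling to TPM, 99 with a minimum of 1 FPKM, 141 with no filter, 5 with a minimum of 20 FPKM and 818 against the mean of 3 libraries. The count of lower genes (87) was 170, 209 and 28 with those filters, and 335 against the mean of 3 libraries.

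Against the mean of 3 libraries the direction turned for the hypoxia response (median 0.10), the fibroblast markers (0.89), EGR1 (-0.44), KLF10 (-0.28), MDK (-0.97), P2RX3 (0.037), IDH2 (0.18), OTOL1 (0.96), PFKFB4 (0.61), CXCR4 (2.05) and PLOD2 (0.33); the cause was not tested. In all, 12 of 40 list medians changed sign there, among them immediate early genes (-0.12), ERK outputs (-0.05), TGF-beta and BMP response (-0.06) and NF-kB targets (-0.08). The glycolysis median was -0.03, the replication median -0.12 and the median of all genes 0.06 there. That mean includes cultures that differ in COL11A1 and in cisplatin selection. With the length and GC trend removed, an alternative chosen after seeing the data, 28 genes were higher and 74 lower, and COL11A1 was at -1.70. With 1 library per arm no replicate could be left out. No paired analysis was possible because each arm holds 1 library.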

Other observations

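Small RNAs held the most extreme ratios, several of them from few estimated reads. SNORD19 was at the lowest value of the table, 0.001 FPKM, in A2780-shCOL11A1, A2780-COL11A1 and A2780CIS, and at 79.7 FPKM in A2780 scrambled shRNA, about 71 reads. SNORD88B stood at 35.3 FPKM in A2780-shCOL11A1, about 37 reads, and at 0.001 FPKM in the other 3 A2780 libraries. RMRP, the RNA of a mitochondrial RNA processing ribonuclease, stood at 169 FPKM in A2780-shCOL11A1, 173 in A2780-COL11A1, 17.3 in A2780CIS and 23.9 in A2780 scrambled shRNA, or about 521 reads in A2780-shCOL11A1 and 84 in A2780 scrambled shRNA. RPPH1, the RNA of ribonuclease P, stood at 31.7 FPKM in A2780-shCOL11A1, 33.7 in A2780-COL11A1, 4.58 in A2780CIS and 0.001 in A2780 scrambled shRNA. For RMRP and RPPH1 the values of A2780-shCOL11A1 and A2780-COL11A1 lay side by side, above those of A2780CIS and A2780 scrambled shRNA. These RNAs lack a poly-A tail, and how much of each a poly-A library captures was not tested.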
